A study of Mus musculus with 8 samples.

Results

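The mtDNA replication and transcription genes are the nuclear genes whose products copy and transcribe the mitochondrial genome. They were examined in RNA-Seq counts of primordial follicles from mouse ovaries on postnatal day 3. The members were taken by name: Polg, Polg2, Twnk, Ssbp1 and Mgme1 for replication, and Polrmt, Tfam, Tfb2m and Tfb1m for transcription. All 9 were found among the 26586 gene symbols counted, 7 under their own symbol. Twnk was listed as Peo1, and Mgme1 was identified as the row 8430406I07Rik through RefSeq's older symbols. The groups were 4 control and 4 mitochondrial supplemented (mito-supplemented) samples, all of the C57Bl/6 x CBA strain background. The mito-supplemented mice belonged to the third generation descended from founders that had received mitochondria of egg precursor cells, a putative germ cell population of the ovarian cortex, when their oocytes were injected with a sperm. The supplementation itself was therefore not applied to the animals sampled, and the comparison asks whether transcripts in their follicles differ from those of controls. The labels define the groups, and all directions given depend on that definition. The colour key of the study's own display of these samples appears to name the groups the other way round. This could not be settled here, and exchanged labels would turn the sign of each log2 fold change and ratio difference. The samples are labelled as biological replicates. Some share the first part of a code in their labels, and the labels do not say whether these came from the same animal or litter. Each p value over 4 libraries a group sets the difference between the groups against the spread between these samples. There may be fewer independent units.

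Mitochondria hold their own small circular genome, whose genes encode subunits of the respiratory chain and the RNAs of the mitochondrial ribosome. Its copying is carried out by the catalytic polymerase subunit Polg, its processivity subunit Polg2, the helicase Twnk, the single-strand binding protein Ssbp1 and the exonuclease Mgme1. Its transcription is carried out by the RNA polymerase Polrmt with Tfam, which also packages the genome, and Tfb2m, whereas the paralog Tfb1m methylates the small ribosomal RNA. Oocytes accumulate a very large number of mtDNA copies as they grow, and primordial follicles hold the oocytes before that growth.

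Total counts ranged from 10370045 in control replicate 4 to 19760763 in mito-supplemented replicate 1. A large share of each library fell on the mitochondrial ribosomal RNA genes Rnr1 and Rnr2, which took 74.0% of the counts of control replicate 4 and between 14.9% and 44.3% in the other libraries. The counts left outside the ribosomal RNA genes numbered 2559876 in control replicate 4 and between 7280214 and 15778975 elsewhere. The members together had 574 counts in control replicate 4 and between 1328 and 4133 elsewhere. Control replicate 4 is thus the shallowest library for these genes, with 17 counts of Tfb1m, 18 of Polrmt and 27 of Polg2. A transcript with 0 counts could have had up to 0.592 CPM (normalised read count scaled to library size, with edgeR's TMM factors) in that library at 3 counts, a limit that covers counting error only. Every member was detected in every library.

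With the quasi-likelihood test of edgeR, adjusted by the Benjamini-Hochberg method, 0 of the 9 members passed an adjusted p value of 0.05, against 0 of all 13873 genes tested (0%). With edgeR's likelihood ratio test 0 of the members passed, against 58 of all genes (0.418%). At an unadjusted p value under 0.05 in the quasi-likelihood test, 1 member, Polg2, was lower in mito-supplemented samples, where 2.4% of all genes were, and 0 members were higher, where 5.31% of all genes were. DESeq2 called 0 members, against 141 of all genes (1.02%), and limma-voom with sample quality weights called 1 of the 9, Polg2, against 2913 of all genes (21%). All 9 members passed the filter on low counts. The log2 fold change was below 0 for 8 of them, and for 55.1% of all genes tested. The median was -0.52 over the members and -0.10 over all genes, a distance of -0.42. Removing single libraries gave distances between -0.48 and -0.30, the latter without control replicate 3. When libraries were scaled by their totals alone, single members moved unequally, Twnk from -0.14 to 0.33 and Polrmt from 0.62 to 0.70. The median of all genes then moved to 0.17, the members' median to -0.25 and the number of members below 0 to 6. That number was also 6 without control replicate 1, without mito-supplemented replicate 3, in limma-voom and with counts summed by label code, and 7 without control replicate 4 and with the GC and length offset. For 5 of the 9 members the log2 fold change lay within the interquartile range of all genes, from -0.61 to 0.51. The members share these 8 libraries, so their directions are not independent of each other. In bulk samples such as these, fewer cells of a type and less RNA per cell cannot be told apart.

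**Figure D1:**
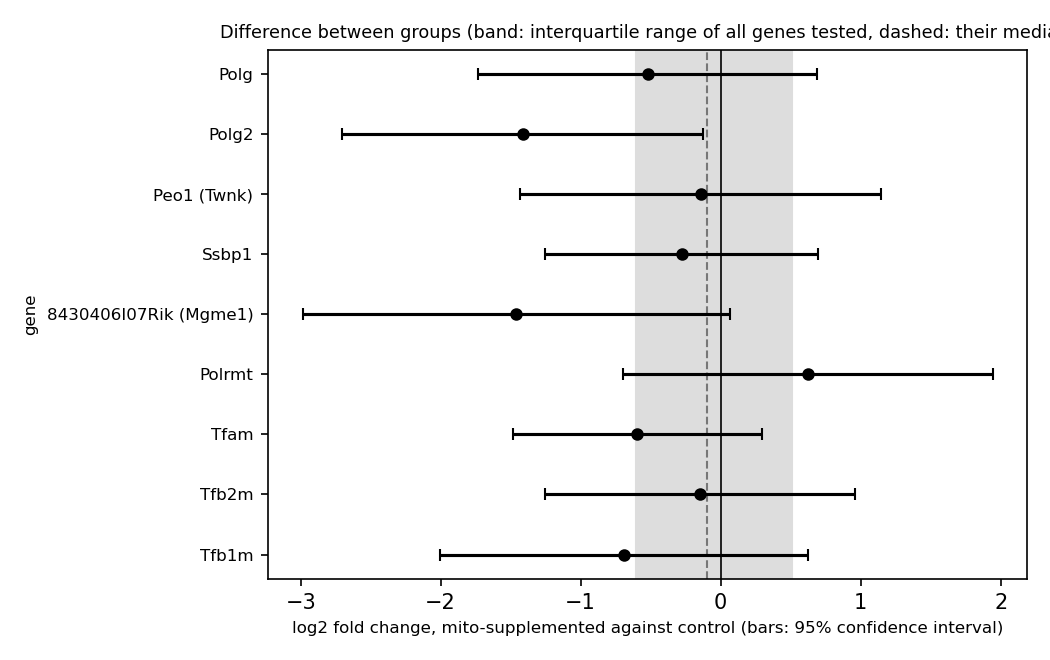
Log2 fold change of each member, mito-supplemented against control, with its 95% confidence interval from edgeR's quasi-likelihood fit (n = 4 per group). The grey band marks the interquartile range of all genes tested, -0.61 to 0.51, and the dashed line their median, -0.10. Polg2, Mgme1 and Tfb1m lie to the left of the band and Polrmt to its right, and each interval but that of Polg2 includes 0.

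Sequences before the start of transcription were examined to see what the members share beyond their function. All 9 members had a promoter window in RefSeq (GRCm38), 250 bases before to 50 bases after the annotated start, and Twnk had 2. Both strands were searched for CCGGAAG, the core of sites of the ETS factors to which GABP belongs, for GCGCATG, the core of NRF1 sites, and for GGGCGG, the GC box of SP1. The ETS core was present in 6 of the members' 10 windows, each of a different member, against 8.86% of all 32851 windows. The NRF1 core was present in 2 of the 10, those of Polrmt and Tfb2m, against 3.91% of all windows. The GC box was present in 6 of the 10, each of a different member, against 35.7%. The GC content of the members' windows ran from 46.7% to 71%, and the windows compared were not matched for it. These matches describe the sequences only, since no binding was measured at them. The stretches outside annotated exons are shown for Polg2, the member with the lowest p value, for Polrmt, the member with the highest log2 fold change, and for the second start of Twnk. The searched letters, or their reverse complement, are in capitals.
Polg2, chr11:106779538-106779787, minus strand: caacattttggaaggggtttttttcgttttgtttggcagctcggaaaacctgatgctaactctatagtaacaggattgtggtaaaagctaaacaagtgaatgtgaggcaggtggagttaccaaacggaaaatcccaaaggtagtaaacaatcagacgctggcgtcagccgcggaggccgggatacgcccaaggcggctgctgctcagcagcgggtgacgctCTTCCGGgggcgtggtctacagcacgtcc
Polrmt, chr10:79746582-79746831, minus strand: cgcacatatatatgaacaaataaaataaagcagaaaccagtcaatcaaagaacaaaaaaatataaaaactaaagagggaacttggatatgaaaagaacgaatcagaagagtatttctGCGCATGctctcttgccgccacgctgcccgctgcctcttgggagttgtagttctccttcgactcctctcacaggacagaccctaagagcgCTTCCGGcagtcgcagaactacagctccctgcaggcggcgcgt
Twnk, chr19:45006443-45006557, plus strand: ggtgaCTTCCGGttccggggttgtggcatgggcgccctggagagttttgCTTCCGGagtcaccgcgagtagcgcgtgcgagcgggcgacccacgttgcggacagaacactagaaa
The Polg2 stretch holds 1 ETS core near the start. The Polrmt stretch holds 1 NRF1 core and, closer to the start, 1 ETS core. The Twnk stretch holds 2 ETS cores.

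Polg2, the accessory subunit that binds Polg and lets it copy long stretches, differed most among the replication genes in terms of p value. Its levels were 16.0, 19.4, 13.7 and 5.33 CPM in control replicates 1 to 4 and 8.05, 2.56, 4.13 and 5.70 CPM in mito-supplemented replicates 1 to 4. Of the controls, 3 were above every mito-supplemented library, and control replicate 4 lay within their range. The means were 13.6 ± 6.01 and 5.11 ± 2.34 CPM (SD, n = 4 each). The log2 fold change was -1.41 (standard error 0.58, 95% confidence interval -2.70 to -0.13), and it was not called (edgeR adjusted p = 0.636). In limma-voom with sample quality weights it was -1.92 (adjusted p = 0.0173), in a fit that called 21% of all genes, and over all alternatives the adjusted p value of Polg2 ranged from 0.0173 to 0.971. Exons of Polg2 share 132 bases with Milr1 on the other strand (GENCODE M21). The strand setting of the counting is not given in the sources used here, so reads from such shared bases cannot be told apart.

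Polg, the catalytic subunit, lies on chromosome 7 (GRCm38, 79446231 to 79466362, minus strand). It had 8.49, 31.8, 22.4 and 7.11 CPM in the control replicates and 13.3, 14.9, 10.3 and 10.2 CPM in the mito-supplemented replicates. The controls held both the lowest and the highest libraries, and the mito-supplemented libraries sat between them. The means were 17.5 ± 11.8 and 12.2 ± 2.31 CPM (SD, n = 4 each), with a log2 fold change of -0.52 (edgeR adjusted p = 0.796, standard error 0.54). Without control replicate 2, the library with the most Polg, the log2 fold change was -0.06. Exons of Polg share 921 bases with those of Fanci, a DNA repair gene on the other strand, which had 42.5 ± 28.0 CPM over the controls and 13.5 ± 11.4 CPM over the mito-supplemented libraries (SD, n = 4 each). Fanci had 71.3 and 56.04 CPM in control replicates 2 and 3, where Polg was highest, and 36.3 CPM in control replicate 1, where Polg was second lowest.

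Mgme1, which trims the ends of newly made mtDNA, had 22.4, 6.03, 6.18 and 10.1 CPM in the control replicates under its older symbol 8430406I07Rik. The mito-supplemented replicates had 4.12, 2.08, 7.85 and 2.16 CPM. Mito-supplemented replicate 3 lay above control replicates 2 and 3, and the other mito-supplemented libraries lay below all controls. The means were 11.2 ± 7.74 and 4.05 ± 2.70 CPM (SD, n = 4 each), and the log2 fold change of -1.46 (standard error 0.69) was the lowest of the members and was not called (edgeR adjusted p = 0.655). Leaving out control replicate 1 gave -0.84, and leaving out mito-supplemented replicate 3 gave -1.97. Its exons share 206 bases with Snx5, a sorting nexin gene on the other strand, which was more abundant at 117 ± 25.6 CPM over the controls and 131 ± 21.9 CPM over the mito-supplemented libraries (SD, n = 4 each).

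Twnk, the helicase that unwinds mtDNA ahead of the polymerase, had 14.1 ± 9.47 CPM over the controls and 12.7 ± 6.13 CPM over the mito-supplemented libraries (SD, n = 4 each). Its highest library in each group was replicate 4, at 27.8 and 20.9 CPM, and the others lay between 6.17 and 12.96 CPM. The log2 fold change of -0.14 (standard error 0.58) was within the spread between replicates and turned to 0.44 when control replicate 4 was left out, to 0.11 when mito-supplemented replicate 3 was, and to 0.33 when libraries were scaled by totals alone. Exons of Twnk share 507 bases with Mrpl43, a mitochondrial ribosomal protein gene on the other strand. Mrpl43 was also highest in replicate 4 of each group, at 35.9 and 25.9 CPM. Ssbp1, which coats the displaced single strand, had 22.8 ± 9.98 CPM over the controls and 18.8 ± 5.85 CPM over the mito-supplemented libraries (SD, n = 4 each). Its log2 fold change was -0.28 (standard error 0.44), and without control replicate 1, where it reached 36.8 CPM, it was 0.08.

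**Figure D2:**
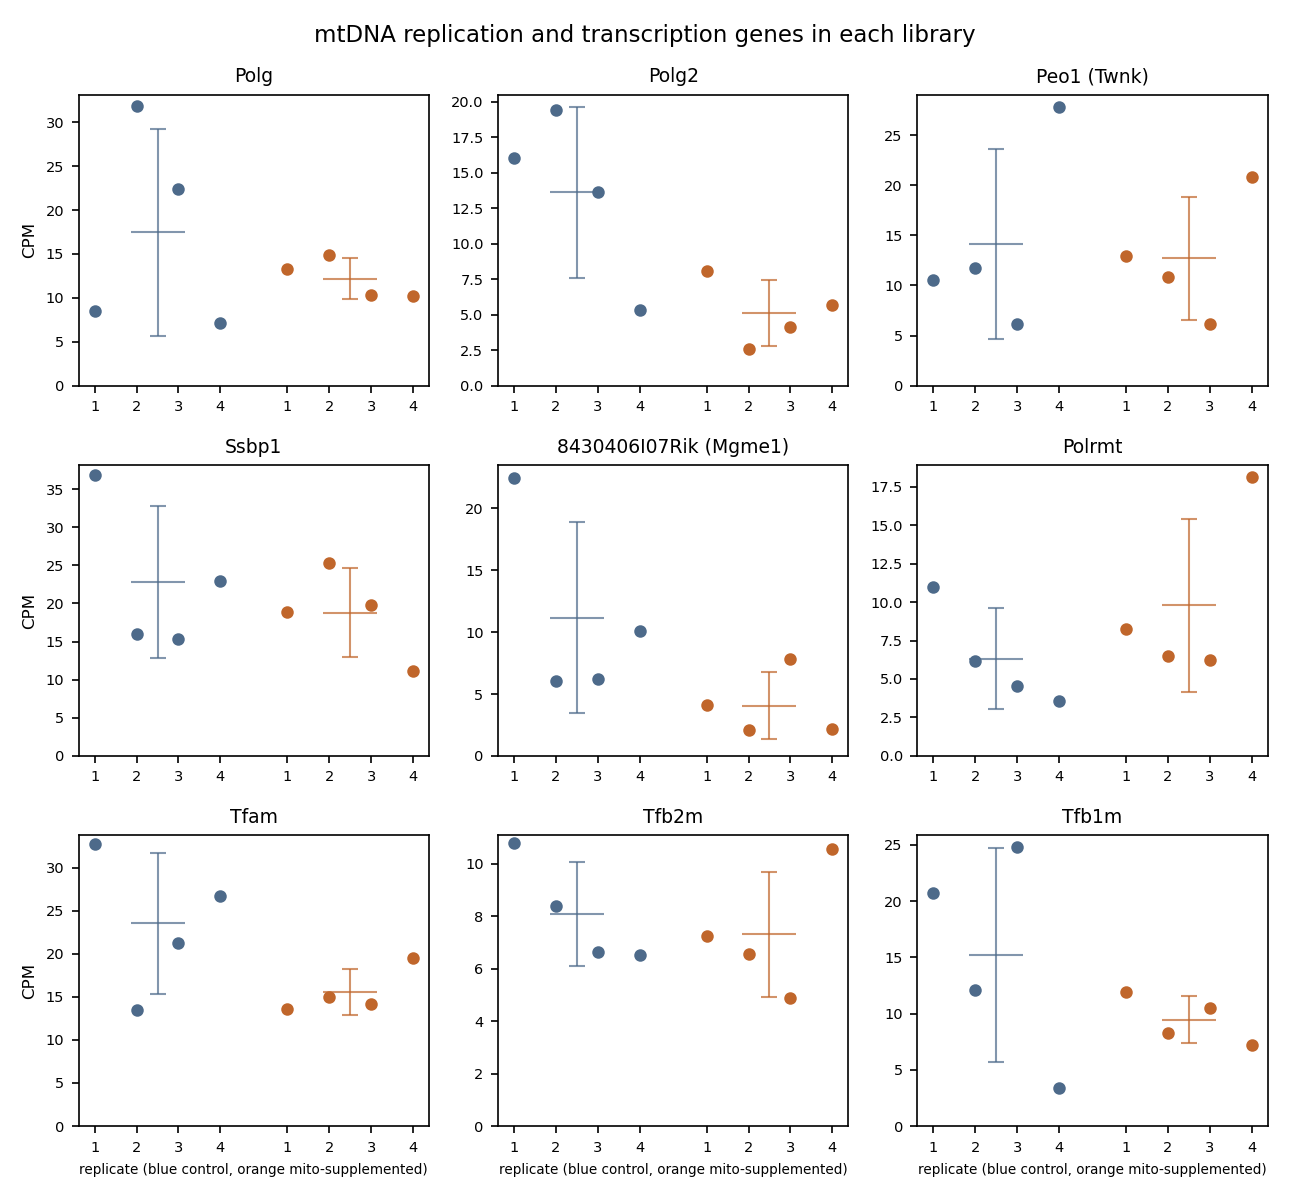
Level of each member in CPM (vertical axes, from 0) in each library, with control replicates 1 to 4 in blue and mito-supplemented replicates 1 to 4 in orange. Horizontal bars and whiskers give the group mean and SD (n = 4). The groups overlap in all 9 panels, and for Polg2, Tfam and Tfb1m the 3 highest libraries are controls.

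Among the transcription genes, Polrmt, the mitochondrial RNA polymerase, was the only member with a positive log2 fold change. It had 10.95, 6.18, 4.58 and 3.55 CPM in the control replicates and 8.25, 6.51, 6.26 and 18.1 CPM in the mito-supplemented replicates. Control replicates 2, 3 and 4 were below all mito-supplemented libraries, and control replicate 1 was above 3 of them. The means were 6.32 ± 3.28 and 9.79 ± 5.64 CPM (SD, n = 4 each), and the log2 fold change was 0.62 (edgeR adjusted p = 0.781, standard error 0.59). Without mito-supplemented replicate 4 it was 0.18, and without control replicate 1 it was 1.05.

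Tfam, which binds and bends the mtDNA promoters and packages the genome, had 32.7, 13.5, 21.3 and 26.6 CPM in the control replicates. The mito-supplemented replicates had 13.6, 15.0, 14.2 and 19.5 CPM. Of the controls, 3 were above every mito-supplemented library and control replicate 2 was below them all. The means were 23.5 ± 8.18 and 15.6 ± 2.66 CPM (SD, n = 4 each), with a log2 fold change of -0.60 (edgeR adjusted p = 0.713, standard error 0.40). It stayed below 0 with each library left out, being lowest without control replicate 2 (-0.79) and highest without control replicate 1 (-0.37).

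The paralogs Tfb2m and Tfb1m derive from an rRNA methyltransferase, and Tfb2m opens the promoter for Polrmt. Tfb2m had 8.09 ± 2.00 CPM over the controls and 7.32 ± 2.38 CPM over the mito-supplemented libraries (SD, n = 4 each), and its libraries spanned a 2.20-fold range, the narrowest of the members. Its log2 fold change of -0.15 (standard error 0.50) was close to 0 and turned slightly positive under 5 of the 19 alternatives, with a highest value of 0.09. Tfb1m had 20.7, 12.1, 24.8 and 3.36 CPM in the control replicates and 11.9, 8.24, 10.5 and 7.23 CPM in the mito-supplemented replicates. As for Polg, the controls held both the lowest and the highest libraries. The means were 15.2 ± 9.51 and 9.47 ± 2.12 CPM (SD, n = 4 each), with a log2 fold change of -0.69 (edgeR adjusted p = 0.759, standard error 0.59). Without control replicate 4 it was -1.0, and without control replicate 3 it was -0.35. Exons of Tfb1m share 142 bases with Tiam2 on the other strand.

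**Figure D3:**
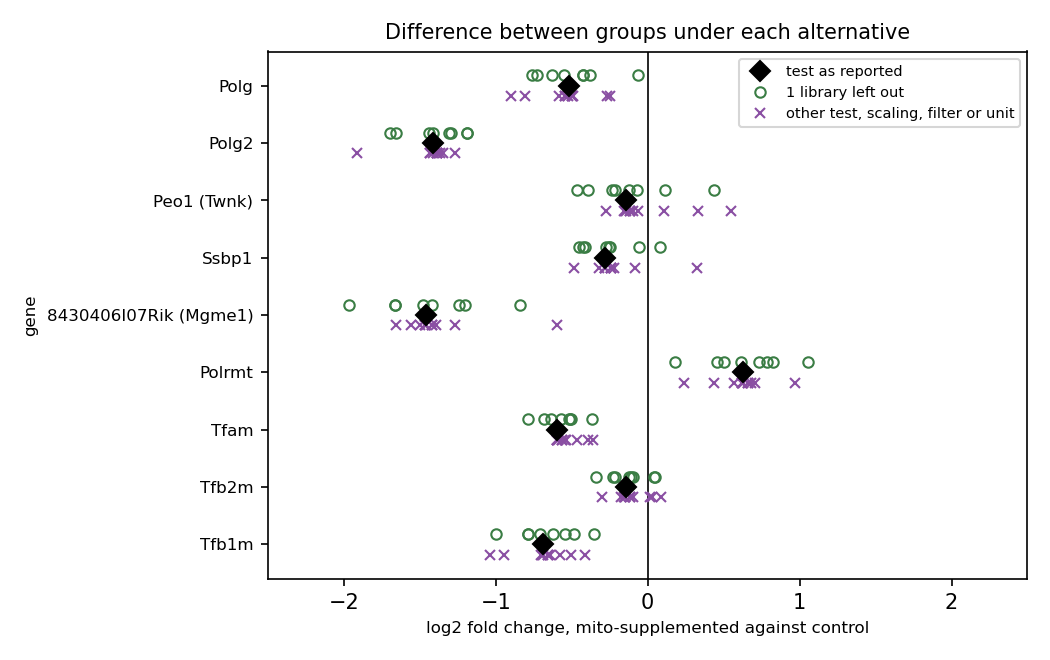
Log2 fold change of each member (horizontal axis) with the quasi-likelihood test as reported (diamonds), with 1 library left out (circles) and under the other alternatives (crosses). Polg2 and Mgme1 stayed below 0, with highest values of -1.19 and -0.60, Polrmt stayed above 0, and Twnk, Ssbp1 and Tfb2m lay on both sides of 0.

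For 0 of the 9 members did all mito-supplemented libraries lie below all controls, where 2.03% of all genes tested did, and for 0 did they lie above, where 3% did. The highest library was a control for 8 members, and control replicate 1 was the highest for 4 of them. The same count was not made over all genes, so it is not read here as a trait of the members. The standard deviation of log2 CPM was larger in controls than in mito-supplemented samples for 6 of the 9 members, or 66.7%, and for 64.2% of all genes.

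Levels of different genes were compared per length, as FPKM, with the TMM-normalised CPM divided by the length of the longest principal transcript of GENCODE in kilobases. Averaged over the 8 libraries, Tfb1m had the highest level at 8.81 ± 5.05 FPKM, followed by Polg2 at 6.22 ± 4.12, Ssbp1 at 4.72 ± 1.79, Tfam at 4.69 ± 1.69, Twnk at 3.84 ± 2.13 and Tfb2m at 3.15 ± 0.85 FPKM (SD, n = 8). Mgme1 followed at 2.68 ± 2.32 FPKM, Polrmt at 2.14 ± 1.24 FPKM and Polg at 1.89 ± 1.07 FPKM (SD, n = 8). The order differed between the groups. With these longest transcripts Polg2 had the mean of rank 2 in controls and of rank 5 in mito-supplemented samples, and the lowest mean was that of Polrmt in controls, at 1.68 FPKM, and that of Mgme1 in mito-supplemented samples, at 1.43 FPKM. Each gene in the pooled order lay above the next in 4 to 6 of the 8 libraries, so that no neighbours differed beyond their spread. The place of Ssbp1 depends on its transcript, since its principal transcripts run from 1188 to 4398 bases, and with the shorter one its mean was 17.5 FPKM, the highest of all. That of Mgme1 does too, with 2359 to 2840 bases. With the shorter one its mean was 3.23 FPKM over all libraries, above Tfb2m, and 1.72 FPKM over the mito-supplemented libraries, above Polg at 1.55 FPKM. The catalytic subunit Polg thus had a lower mean per length than its accessory subunit Polg2, with transcripts of 7837 and 1506 bases. In counts not divided by length, Polg2 exceeded Polg only in control replicate 1. In mito-supplemented replicate 2 Polg was the higher also per length, at 1.90 against 1.70 FPKM. In controls Polg2 had 9.04 ± 3.99 FPKM and Polg 2.23 ± 1.51 FPKM, and in mito-supplemented samples they had 3.39 ± 1.56 and 1.55 ± 0.29 FPKM (SD, n = 4 each).

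The balance between partners was examined as the log2 ratio of 2 genes' counts within a library, which does not depend on how libraries are scaled. The ratio of Polg2 to Polg was 0.92, -0.71, -0.71 and -0.41 in the control replicates and -0.72, -2.52, -1.31 and -0.84 in the mito-supplemented replicates. All mito-supplemented libraries were below all controls, although control replicates 2 and 3 and mito-supplemented replicate 1 nearly met. The means were -0.23 ± 0.78 and -1.35 ± 0.82 (SD, n = 4 each), a difference of -1.12. The exact permutation test (two-sided) gave p = 0.0286, the smallest that 4 libraries against 4 allow, and 0.0857 after adjustment over the 3 ratios, so the difference did not pass. Leaving out control replicate 1 gave a difference of -0.74, and leaving out mito-supplemented replicate 2 gave -0.73.

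The ratio of Tfam to Polrmt was 1.58, 1.12, 2.21 and 2.87 in the control replicates and 0.72, 1.20, 1.18 and 0.10 in the mito-supplemented replicates. Control replicate 2 lay among the mito-supplemented libraries and the other controls lay above them. The difference in means was -1.15 (exact permutation test, two-sided, p = 0.0857, adjusted p = 0.129). The ratio of Tfb2m to Tfb1m ranged from -1.90 to 0.94 in controls and from -1.10 to 0.55 in mito-supplemented samples, and it did not differ beyond that spread (difference 0.21, exact permutation test, two-sided, p = 0.80, adjusted p = 0.80).

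**Figure D4:**
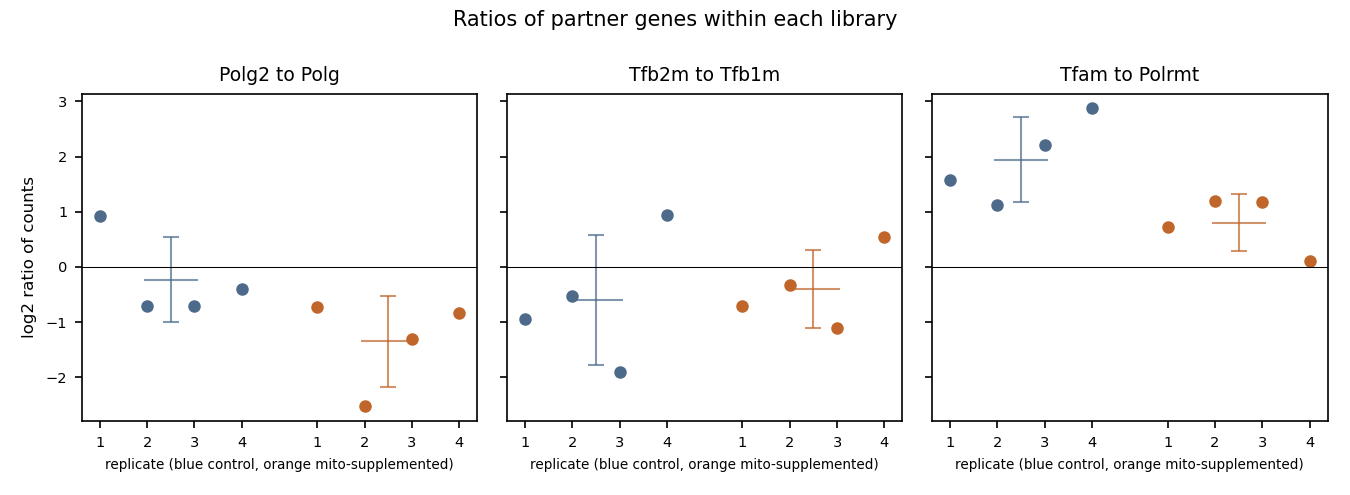
Log2 ratio of counts of partner genes (vertical axis) in each library, control replicates in blue and mito-supplemented replicates in orange, with the mean and SD of each group (n = 4). The ratio of Polg2 to Polg lay between -0.71 and 0.92 in controls and between -2.52 and -0.72 in mito-supplemented samples, while the other ratios overlapped.

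The profiles of the members over the libraries were not alike. In log2 CPM centred on each gene's mean, the closest members were Tfam and Tfb2m, with a root mean square difference of 0.44 over the 8 libraries, and the farthest were Twnk and Tfb1m, at 1.45. The mean centred profile of the 9 members was 0.67, 0.23, 0.11 and -0.16 in the control replicates and -0.05, -0.39, -0.32 and -0.09 in the mito-supplemented replicates. Among 3759 other genes of similar abundance, the profiles closest to this mean were those of Mrpl24, Coasy, Msl3, Nfyc and Uck2, with root mean square differences from 0.15 to 0.20 over the 8 libraries.

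Other genes of the pathway were grouped in lists, with 74 genes tested in all. In edgeR's quasi-likelihood test 0 of the 74 were called, against 0% of all genes, and 0 had an unadjusted p value under 0.05, against 2.4% of all genes for lower and 5.31% for higher levels in mito-supplemented samples. With the likelihood ratio test 0 were called, against 0.418% of all genes. The log2 fold change was below 0 for 54 of them, against 55.1% of all genes, and above 0 for 20, with a median of -0.26 against -0.10 over all genes tested.

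Of 16 mtDNA maintenance factors tested, 10 had a log2 fold change below 0 and the median was -0.10. The most abundant was Lonp1, the matrix protease that degrades Tfam, at 52.0 ± 13.1 CPM over the controls and 44.3 ± 9.04 CPM over the mito-supplemented libraries (SD, n = 4 each). The lowest log2 fold change was that of Fen1, the flap endonuclease, at -1.50 (edgeR adjusted p = 0.667, standard error 0.77). Fen1 was highest at 96.2 and 79.9 CPM in control replicates 2 and 3, followed by 45.1 CPM in mito-supplemented replicate 1 and 41.8 CPM in control replicate 4. The highest was that of Mpv17, an inner membrane protein whose loss depletes mtDNA, at 1.29 (standard error 0.68), with 81.8 CPM in mito-supplemented replicate 4 and between 5.58 and 22.0 CPM in the other libraries.

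Of 12 genes of mitochondrial nucleotide supply tested, 8 were below 0 and the median was -0.30. Rrm1, the large subunit of ribonucleotide reductase, was the most abundant, with 368.5 and 304 CPM in control replicates 2 and 3, 213 CPM in mito-supplemented replicate 1 and between 28.9 and 89.4 CPM elsewhere. Samhd1, a phosphohydrolase that removes deoxynucleotides, had the highest log2 fold change of the list, 0.59 (edgeR adjusted p = 0.667, standard error 0.30). It had 69.2, 48.2, 62.2 and 53.7 CPM in the control replicates and 72.4, 92.6, 74.8 and 112 CPM in the mito-supplemented replicates. All mito-supplemented libraries were above all controls, as in 3% of all genes tested. Tymp, thymidine phosphorylase, had the lowest log2 fold change, -1.16 (standard error 1.41), from 0 to 40 counts per library.

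Of 24 genes of mitochondrial transcription elongation, termination and RNA processing tested, 18 were below 0 and the median was -0.28. Grsf1, an RNA-binding protein of mitochondrial RNA granules, was the most abundant at 92.6 ± 24.6 CPM over the controls and 77.5 ± 4.84 CPM over the mito-supplemented libraries (SD, n = 4 each). Elac2, which cuts the ends of tRNA precursors, had the lowest log2 fold change at -1.28 (standard error 0.68), with 78.2 CPM in control replicate 1 and between 4.66 and 24.5 CPM elsewhere. The highest, 0.76 (standard error 0.61), was that of Mterf4, listed as Mterfd2, which reached 123 CPM in mito-supplemented replicate 4. Mterf4 also led the list of 11 partners of Tfb1m in rRNA modification and ribosome assembly, in abundance and in log2 fold change. Of these 11, 9 were below 0, the median was -0.66, and the lowest was the rRNA methyltransferase Mrm2, listed as Ftsj2, at -1.64 (standard error 1.09) with between 1 and 83 counts per library.

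Of 12 upstream regulators tested, 9 were below 0 and the median was -0.18. Gabpb2, a subunit of the ETS factor GABP, was both the most abundant and the lowest in log2 fold change, at -1.05 (edgeR adjusted p = 0.689, standard error 0.62). It had 387 and 331 CPM in control replicates 2 and 3, 221 CPM in mito-supplemented replicate 1 and between 62.7 and 86.4 CPM in the other libraries. Ppargc1b, a coactivator of mitochondrial gene expression, had the highest log2 fold change at 1.43 (standard error 1.11), with 0 counts in control replicate 4 and between 31 and 182 in the others.

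Of the transcripts made from mtDNA, the ribosomal RNAs Rnr1 and Rnr2 were analysed. The study's methods include a step that removes ribosomal RNA from the libraries, so their counts are what was left after it and are not read here as transcript levels. Rnr1 took 4.38%, 6.92%, 5.95% and 13.4% of the counts of the control replicates and 2.51%, 8.29%, 7.10% and 9.57% of those of the mito-supplemented replicates. Rnr2 took 15.0%, 30.9%, 30.7% and 60.6% in controls and 12.4%, 36.0%, 27.7% and 32.6% in mito-supplemented samples. For both RNAs the shares of the groups overlapped.

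Markers of the cells that the isolates could hold differed between libraries. The labelled cell type was present by its markers, since Ddx4 and Dazl of oocytes and Foxl2 of pregranulosa cells were detected in all 8 libraries. The 12 oocyte markers summed to 2009, 158, 96.7 and 414 CPM in the control replicates and to 226, 124, 455 and 75.9 CPM in the mito-supplemented replicates, and Kit was the most abundant. Control replicate 1, the library with the highest levels of Ssbp1, Mgme1, Tfam and Tfb2m, also had the highest oocyte sum. Of the 11 oocyte markers tested, 11 had a log2 fold change below 0 and 0 were called, with a median of -1.80, and Oosp1 was at 0 in 6 libraries. Without control replicate 1, an alternative chosen after seeing the data, 4 of the 11 were below 0, the median was 0.22, and the sum averaged 223 CPM over the controls and 220 CPM over the mito-supplemented libraries. The part of the oocyte content in the members' differences was not tested.

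The 10 pregranulosa markers, of which Wt1 was the most abundant, summed to 257, 171, 262 and 860 CPM in the control replicates and to 470, 1156, 751 and 1239 CPM in the mito-supplemented replicates. All 10 were detected in every library, and 9 had a log2 fold change above 0. The 8 stromal markers, led by Col3a1, summed to between 336 and 2199 CPM in controls and between 949 and 2480 CPM in mito-supplemented samples. All 8 stromal markers, with a median of 0.74, all 6 endothelial markers, led by Kdr, all 6 surface epithelial markers, led by Upk3b, and all 5 smooth muscle markers, led by Myh11, had a log2 fold change above 0. Without mito-supplemented replicate 4, also chosen after seeing the data, 6 of the 8 stromal and 2 of the 5 smooth muscle markers were above 0. Their medians were then 0.44 and -0.17, against 0.74 and 0.88 as reported. Without control replicate 4 these medians were 1.69 and 2.10. That of the surface epithelial markers, 1.82 as reported, was then 3.49. In edgeR's quasi-likelihood test 0 markers of any list were called. Its likelihood ratio test called 1 endothelial marker, Esam, and 1 surface epithelial marker, Upk1b, against 58 of all 13873 genes (0.418%). Both were higher in mito-supplemented samples (edgeR likelihood ratio test, adjusted p = 0.0123 and 0.00085). The surface epithelial sum was 76.3 ± 87.4 CPM over the controls and 314 ± 147 CPM over the mito-supplemented libraries, the endothelial sum was 71.2 ± 82.3 and 170 ± 55.4 CPM, and the smooth muscle sum was 80.6 ± 97.5 and 133 ± 129 CPM (SD, n = 4 each). In each of these lists control replicate 4 was the highest control. Without mito-supplemented replicate 4 the smooth muscle sum averaged 68.6 CPM over the mito-supplemented libraries, below the mean of the controls. Without control replicate 4 the control means of the surface epithelial, endothelial and smooth muscle sums were 33.4, 30.2 and 32.2 CPM. The part of these cells in the members' differences was not tested.

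Erythroid markers split the libraries in a way that crossed the groups. Their 7 genes summed to 3906 and 2495 CPM in control replicates 2 and 3 and to 4877 CPM in mito-supplemented replicate 1, and to between 23.8 and 79.7 CPM in the other libraries, and the most abundant was Slc4a1. Slc4a1 alone had 2504, 1704 and 2998.5 CPM in control replicates 2 and 3 and mito-supplemented replicate 1. Hba-a1 was at 0 in 7 libraries, and Hba-a1, Hba-a2 and Beta-s did not pass the filter on low counts. The leukocyte markers, led by Lyz2, summed to 129, 113 and 724 CPM in the same 3 libraries and to between 7.43 and 21.1 CPM in the others, with C1qa at 0 in 6 libraries. The highest levels of Rrm1, Gabpb2, Fen1 and Fanci were found in control replicates 2 and 3, and so were those of Polg, whereas mito-supplemented replicate 1 had the third highest level of Rrm1, of Gabpb2 and of Fen1 but not of Fanci or Polg. Polg's log2 fold change was -0.06 once control replicate 2 was left out. The part of the erythroid content in these values was not tested.

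**Figure D5:**
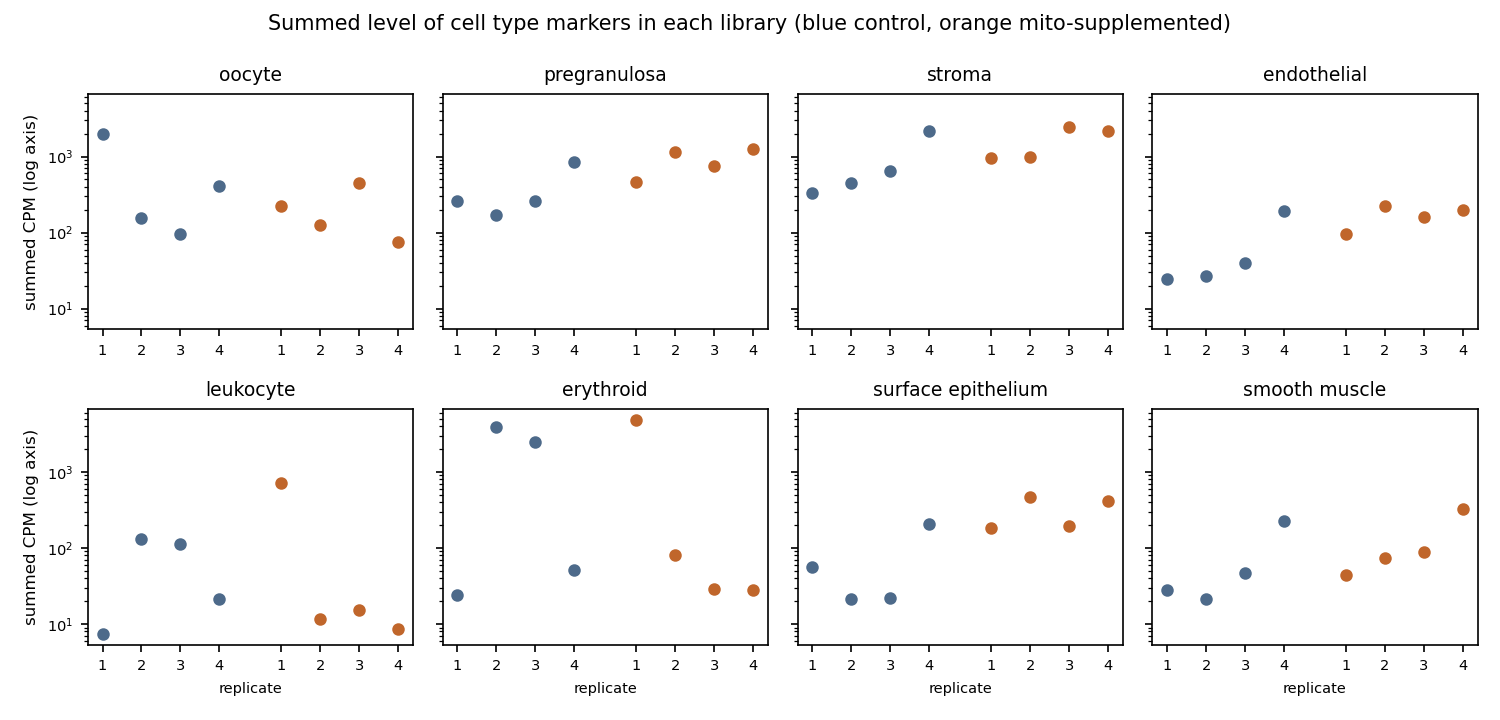
Summed CPM of each list of cell type markers (vertical axes, logarithmic) in each library, control replicates in blue and mito-supplemented replicates in orange. The oocyte sum was highest in control replicate 1, at 2009 CPM, and the erythroid sum was at least 2495 CPM in control replicates 2 and 3 and mito-supplemented replicate 1.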

How the data were processed

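RNA from primordial follicles was amplified, ribosomal RNA was removed from the libraries and these were sequenced, and the reads were trimmed with Trim Galore 0.4.4, mapped to GRCm38 with STAR 2.5.3a and counted on exons with featureCounts, according to the submitters' processing notes and the study's methods. The deposited values are these raw counts per gene, made by the authors, who set 1 control library aside, which was not analysed here. Which annotation release was counted, with which strand setting, and how multiply mapped reads were handled is not given in the sources used here. Groups and replicate numbers were taken from the sample labels.

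Counts of the 8 libraries were analysed in R 4.3.3 with edgeR 4.0.16, using TMM normalisation, the default expression filter and the quasi-likelihood test, with Benjamini-Hochberg adjustment over all 13873 genes tested and calls at an adjusted p of 0.05. Each standard error was the log2 fold change divided by the square root of F. CPM values were TMM-normalised, log2 CPM had a prior count of 2 added, and ratios one of 0.5. Alternatives were edgeR's likelihood ratio test, which the study's methods name, DESeq2 1.42.0, limma 3.58.1, other scalings and filters, an offset for GC content and length (known for 97.4% of genes tested), a replicate block, counts summed over samples sharing the first part of their label code, and each library left out in turn. Code and group cannot be told apart, as each code occurred in 1 group. The scripts were tested on simulated data. Coordinates are from GENCODE M21 and promoter windows from RefSeq, both on GRCm38.

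The members and gene lists were chosen with earlier results of these data known. All members were named, and of each pathway list the most abundant gene, the highest and the lowest log2 fold change and any called gene. The 5 genes most like the members were those with the smallest root mean square difference of centred log2 CPM from the members' mean profile, within the members' range of abundance. Prorp, Hbb-bt and Hbb-b2 were not analysed here.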

Additional observations from a re-analysis of the deposited data

How the results depend on the processing

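The quasi-likelihood test called 0 genes, whereas edgeR's likelihood ratio test called 58, DESeq2 141 and limma-voom with sample quality weights 2913. The limma weights were lowest in control replicate 1 (0.23) and highest in control replicate 3 (3.53). Under the other scalings and filters, the GC and length offset, the sum over label codes and each library left out, the quasi-likelihood test called 0 genes. Limma-voom called 1 member, Polg2 (log2 fold change -1.92), and the other alternatives 0. With the replicate number as a block, 0 genes and 0 members were called, and the members' median lay -0.24 from that of all genes, against -0.42 without the block. Deviations of samples with the same number correlated at -0.24, -0.19, -0.33 and 0.22. Samples with different numbers were not compared, so these values cannot tell whether the numbers pair the samples.

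Polg, Polg2, Mgme1, Polrmt, Tfam and Tfb1m kept their direction under all 19 alternatives. Twnk turned to 0.11 in limma-voom, 0.33 with totals alone and 0.55 with summed codes, and lay between -0.46 and 0.44 with single libraries removed. Ssbp1 turned to 0.33 in limma-voom and lay between -0.45 and 0.078 with single libraries removed. Tfb2m turned to 0.030 with totals alone, to 0.087 with summed codes and to 0.015 after the GC and length offset, and lay between -0.34 and 0.046 with single libraries removed. The difference in the Tfb2m to Tfb1m ratio, 0.21 as reported, was 1.10 with summed codes and lay between -0.22 and 0.72 with single libraries removed. The Polg2 to Polg and Tfam to Polrmt differences kept their sign. For each of these, the cause was not tested. A single ratio of 3 cannot reach an adjusted p below 0.0857 with 4 libraries against 4, nor can any ratio pass with 2 summed codes against 2, so a miss says nothing about stability. Leaving single libraries out of the marker lists was chosen after seeing the data. The median of the oocyte markers, -1.80 as reported, turned to 0.22 without control replicate 1 and otherwise lay between -2.24 and -1.34, when mito-supplemented replicates 3 and 4 were omitted in turn.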
